A study of Mus musculus with 18 samples.

Results

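Bmi1, Hopx, Lrig1 and Tert are 4 genes whose transcripts or reporter alleles have been used to mark reserve stem cells of the mouse small intestine. They were taken by exact gene symbol from a 1-colour whole-transcript array, where each has 1 probe set, and they make up 4 of the 19938 genes tested. The cells were small intestinal crypt cells of 4-month-old C57Bl6/J mice of genotype FltpZV/+, which carry 1 reporter allele of Flattop (Cfap126), known from planar cell polarity signalling. Single cells were sorted by reporter fluorescence into high, low and negative gates, so cells of the negative gate carry the allele too. There were 2 arrays per gate, made from RNA of 2 pooled animals apiece. Whether same-numbered arrays of different gates came from the same animals is not stated. Another 12 samples of the series, from a lineage-tracing line, have no values in the table used and were not analysed here.

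Reserve stem cells are thought of as slowly cycling cells, described mainly above the crypt base, that can replace the fast-cycling Lgr5-positive crypt base columnar cells after injury. Bmi1 is a subunit of polycomb repressive complex 1, which silences genes through histone H2A ubiquitination. Hopx is a small homeodomain protein that does not bind DNA itself. Lrig1 is a transmembrane protein that restrains ErbB growth factor receptors, and Tert is the catalytic subunit of telomerase. These transcripts are not restricted to 1 cell type: Hopx is also found in T lymphocytes, Bmi1 reporter cells include enteroendocrine cells, and Lrig1 is found in crypt base columnar cells.

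The only Hopx probe set is annotated to all 3 of its curated RefSeq transcripts, and RefSeq (GRCm38.p6) places 2 start sites for this gene. The array value of Hopx therefore does not separate transcripts of the different starts. The 250 bases before each start are shown for that reason, with those of Bmi1 for contrast. Capitals mark the E-box (CACGTG, palindromic) and the GC box (GGGCGG or its reverse complement CCGCCC), each run 5′ to 3′ on the gene's own strand. The first Hopx window is chr5:77115124-77115373, the second is chr5:77095268-77095517, both on the minus strand, and the Bmi1 window is chr2:18676768-18677017 on the plus strand.
Hopx start 1: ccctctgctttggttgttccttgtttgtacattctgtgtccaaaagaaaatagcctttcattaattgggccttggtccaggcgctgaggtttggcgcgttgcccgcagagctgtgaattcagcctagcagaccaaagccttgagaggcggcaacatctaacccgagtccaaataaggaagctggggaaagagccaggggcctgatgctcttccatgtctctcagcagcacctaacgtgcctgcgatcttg
Hopx start 2: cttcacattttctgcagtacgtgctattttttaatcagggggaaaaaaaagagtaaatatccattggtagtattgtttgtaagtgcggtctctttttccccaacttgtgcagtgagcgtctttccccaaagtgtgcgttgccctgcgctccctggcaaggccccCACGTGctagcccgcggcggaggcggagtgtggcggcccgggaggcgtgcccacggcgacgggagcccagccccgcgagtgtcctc
Bmi1: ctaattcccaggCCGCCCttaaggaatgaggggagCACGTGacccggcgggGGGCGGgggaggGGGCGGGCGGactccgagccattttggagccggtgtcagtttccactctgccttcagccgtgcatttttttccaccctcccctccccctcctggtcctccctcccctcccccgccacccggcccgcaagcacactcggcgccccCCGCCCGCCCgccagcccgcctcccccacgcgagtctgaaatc
The first Hopx window holds neither motif. The second holds 1 E-box, 86 bases before the start, and no GC box. The Bmi1 window holds 1 E-box, 215 bases before the start, and 6 GC boxes counted on both strands, of which 2 pairs overlap. The windows of Lrig1 (chromosome 6) and Tert (chromosome 13) hold 2 GC boxes each and no E-box. Of all 32851 RefSeq windows of this length, 6.02% hold an E-box and 32.7% a GC box. A match describes the letters only, and no binding data were used here.

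The arrays had median RMA values between 4.54 and 4.74 on the log2 scale. RMA is the Affymetrix summary of a probe set's signal. A background level of 4.23, the 95th percentile of mean values over 1205 odorant, vomeronasal and trace amine receptor genes, was exceeded by 61.3% to 69.5% of genes per array, with high replicate 2 at the top. The Pearson correlation across genes was 0.946 for the high pair, 0.975 for the low pair and 0.981 for the negative pair, so the high arrays were the least alike. Cfap126 averaged 5.07 ± 0.11 in the high, 5.64 ± 0.69 in the low and 5.09 ± 0.42 in the negative gate (SD, n = 2 each), with no called difference. These are bulk samples, in which more cells of a type and more RNA per cell cannot be told apart. Nothing in the labels says that the arrays came from separate cell preparations beyond the 2-animal pools, so p-values measure only the spread between these arrays.

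None of the 4 genes passed the test in any comparison, while Bmi1, Hopx and Lrig1 were above background on all 6 arrays and Tert on none. In low against negative cells 0 of 4 were called by limma at an adjusted p under 0.05 and 1, Hopx, had an unadjusted p under 0.05, beside 5.96% and 18.5% of all genes. In high against negative cells 0 of 4 were called and 0 had an unadjusted p under 0.05, beside 4.71% and 22.2% of all genes. In high against low cells both counts were again 0, beside 4.91% and 22.6%. Arrays of low and negative cells did not overlap for 2 of 4 genes (Hopx and Lrig1), those of high and negative cells for 2 of 4 (Bmi1 and Hopx) and those of high and low cells for 1 of 4. That 1 gene is Tert, whose values all lie below background, so its separation is counted here and read no further. These counts stand beside 51.5%, 55.2% and 55.8% of all genes, so they are near the background or below it. The median difference over the 4 genes was 0.21, 0.28 and 0.13 in the same order, beside -0.03, 0.10 and 0.13 over all genes. Split by direction, 23.0% of all genes were higher and 28.5% lower without overlap in low cells and 32.9% and 22.4% in high cells, each against negative cells, and 35.3% and 20.4% in high against low cells. Mean Bmi1 was highest in high cells, mean Hopx in low cells and mean Lrig1 in negative cells, and no order was read for Tert. No difference behind these orders was called. Bmi1 in high minus low and Lrig1 in high minus negative changed sign in 2 and 3 alternatives.

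**Figure D1:**
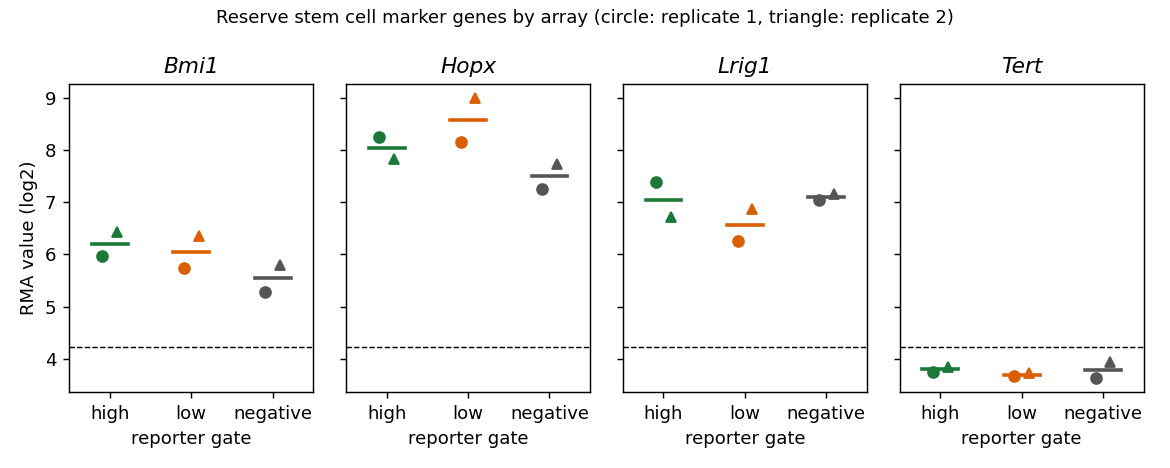
RMA value (log2) of each gene on each array, by reporter gate, with circles for replicate 1, triangles for replicate 2, bars for the mean of 2 arrays and a dashed line at the background level of 4.23. Bmi1, Hopx and Lrig1 lie above the line on all 6 arrays and Tert below it on all 6.

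Bmi1 had values of 5.97 and 6.43 in high cells, 5.74 and 6.36 in low cells and 5.29 and 5.79 in negative cells. Both high arrays lay above both negative arrays, while the low arrays overlapped those of the other gates. In each gate replicate 2 was the higher array, by 0.46 in high, 0.62 in low and 0.50 in negative cells. The high gate exceeded the negative gate by 0.66 ± 0.30 (SE; limma adjusted p = 0.256; 95% interval -0.06 to 1.38). The low gate exceeded it by 0.51 ± 0.30 (limma adjusted p = 0.474; interval -0.20 to 1.23) and high minus low was 0.15 ± 0.30 (limma adjusted p = 0.775; interval -0.57 to 0.86). In folds, the interval of high over negative runs from 0.961 to 2.60. Neighbouring gates in the order high, low, negative did not differ beyond the spread of their arrays. High minus low changed sign without low replicate 1 (-0.16) or high replicate 2 (-0.08).

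Partners of Bmi1 showed few calls, and so did all genes, with 5.96% called in low against negative and 4.71% in high against negative cells. An unadjusted p under 0.05 was held by 18.5% of all genes in low against negative and 22.2% in high against negative cells. Of 19 genes of polycomb repressive complex 1 besides Bmi1, 17 were measured and all 17 lay above background. In low against negative cells 0 were called by limma and 5 had an unadjusted p under 0.05 (median difference 0.16). The smallest p values were those of Rybp, a subunit of non-canonical complexes, at -0.90 ± 0.23 (limma adjusted p = 0.0781), and Phc1, a polyhomeotic subunit, at 0.86 ± 0.24 (limma adjusted p = 0.0916), called in 5 alternatives and in 1. In high against negative cells 0 were called and 2 had an unadjusted p under 0.05 (median -0.02), with Pcgf6, a paralog of Bmi1, at -0.74 ± 0.23 (limma adjusted p = 0.123) and Scmh1 at 0.97 ± 0.40 (limma adjusted p = 0.222). Rnf2, the ubiquitin ligase that pairs with Bmi1, was the 1 call of the list in high against low cells, where 1.01% of all genes were called higher and 3.89% lower. It had 4.33 and 3.80 in high cells and 5.21 and 5.80 in low cells, a fall of 1.44 ± 0.28 (limma adjusted p = 0.0383), with high replicate 2 below background.

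The second polycomb complex and the CDK inhibitors moved in single genes. Of 11 genes of polycomb repressive complex 2, Phf1, an accessory subunit, rose by 0.92 ± 0.19 in low against negative cells (limma adjusted p = 0.0366; list median -0.14), where 3.42% of all genes were called higher and 2.54% lower. Ezh2, its methyltransferase, fell by 1.15 ± 0.22 in high against negative cells (limma adjusted p = 0.0373; list median -0.39), where 1.36% of all genes were called higher and 3.35% lower. Those shares are 272 and 667 genes, against 324 and 297 with quantile normalization, and in high against low cells 202 and 776 against 326 and 616. In high against low cells 0 of 11 were called by limma and 3 had an unadjusted p under 0.05. Over all genes these shares were 4.91% and 22.6%. The smallest p values were those of Phf1 at -0.75 ± 0.19 and Mtf2 at -0.88 ± 0.25. Cdkn2a, the best-known gene silenced by Bmi1, had 4.72 and 5.13 in high, 4.63 and 4.84 in low and 4.72 and 4.69 in negative cells. It is given for that role, outside the naming rule and after its values were seen, and its arrays in high and low cells overlapped. Both high arrays lay narrowly above both negative arrays, as for 32.9% of all genes. That difference was not called, at 0.22 ± 0.21 (limma adjusted p = 0.553). Of 6 measured CDK inhibitor genes, Cdkn1c, which encodes p57, rose by 1.39 ± 0.21 in low against negative cells (limma adjusted p = 0.0134) and Cdkn2b fell by 1.38 ± 0.25 (limma adjusted p = 0.025). Cdkn1c had 5.37 and 5.44 in high, 6.35 and 6.62 in low and 4.94 and 5.25 in negative cells. It fell by 1.08 ± 0.21 in high against low cells (limma adjusted p = 0.0356). In high against negative cells 0 of 6 were called by limma and 2 had an unadjusted p under 0.05. These 2 were Cdkn2c at -0.92 ± 0.30 and Cdkn2b at -0.60 ± 0.25. The shares over all genes were 4.71% and 22.2%. Cdkn2c had a mean below background in high cells, with 1 of 2 arrays above it, so its difference depends on values near the floor. The 6 polycomb and CDK inhibitor calls were all lost without negative replicate 1 (limma adjusted p from 0.0778 to 0.241), negative replicate 2 (0.0719 to 0.147) or low replicate 2 (0.071 to 0.188). Without low replicate 1, 4 were lost (0.0661 to 0.151), and without high replicate 2, 3 were lost (0.0715 to 0.101). The fall of Cdkn1c in high against low cells was also lost without high replicate 1 (0.0566). Rnf2, Phf1, Ezh2 and Cdkn1c in high against low cells each lost the call in 3 or more of the other alternatives too (limma adjusted p from 0.0503 to 0.0911).

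Hopx showed the largest spread of the 4 genes across arrays. It had 8.25 and 7.83 in high cells, 8.16 and 9.01 in low cells and 7.25 and 7.73 in negative cells. Both low arrays and both high arrays lay above both negative arrays, and the low and high arrays overlapped. Low exceeded negative by 1.09 ± 0.33 (SE; unadjusted p = 0.0144, limma adjusted p = 0.128), a 2.12-fold difference with a 95% interval from 1.23 to 3.68. It is not called, and the adjusted p ranged from 0.0686 to 0.515 over its 14 alternatives. High minus negative was 0.55 ± 0.33 (limma adjusted p = 0.373; interval -0.25 to 1.34) and high minus low was -0.54 ± 0.33 (limma adjusted p = 0.361; interval -1.33 to 0.25). Low replicate 2 was the highest array, and without it low minus negative was 0.66 (limma adjusted p = 0.481).

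Markers of other cells differed between the gates. The mean level of the T lymphocyte list (14 of 15 genes measured) was 6.67 and 6.80 in high, 9.49 and 9.71 in low and 8.37 and 8.63 in negative cells, with 13 of its 14 genes above background on both arrays of each gate. The enteroendocrine list (12 of 12) had means of 5.98 and 5.37 in high, 9.62 and 9.46 in low and 4.71 and 4.77 in negative cells, with 10, 12 and 6 genes above background on both arrays. The immediate early and heat shock list that marks dissociation (12 of 13) had 8.55 and 8.44 in high, 8.63 and 8.79 in low and 8.13 and 8.26 in negative cells. Its genes went both ways, with 10 differences above 0 and 2 below in low against negative cells. In high against negative cells 7 were above 0 and 5 below. By their means, Hopx and the enteroendocrine and dissociation lists had the order low, high, negative, and the T lymphocyte list the order low, negative, high. No difference of Hopx between gates was called. Of 6 endothelial genes 1, Pecam1, lay above background on both arrays of the low gate and none did in the high or negative gate, and 5 were at or below background on all arrays. Pecam1, which some leukocytes also carry, is named after its values were seen and had a low minus negative difference of 1.15 ± 0.41 (limma adjusted p = 0.185). Of 3 measured neuronal and glial genes 1 was above background on both high arrays and none on both arrays of the low or negative gate. The fibroblast and muscle list had 6, 3 and 4 of 10 genes above background on both arrays in high, low and negative cells. The part of any of these cells in the Hopx values was not tested.

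The genes nearest to Hopx in pattern were Ddit3, Ypel3 and Mtss1. Each profile was centred on its own 6-array mean and compared by root mean square difference among 12282 other genes above background. Ddit3, a transcription factor of the integrated stress response, differed from Hopx by 0.11 on the log2 scale. It had 7.65 and 7.19 in high, 7.60 and 8.11 in low and 6.60 and 7.10 in negative cells. Ypel3, a gene associated with growth arrest, differed by 0.14 and Mtss1, a membrane and actin binding protein, by 0.15. None of the 3 was called by limma in any comparison, with adjusted p of 0.104, 0.0627 and 0.124 in low against negative cells, though Ypel3 was called there in 5 alternatives and Ddit3 in 1.

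**Figure D2:**
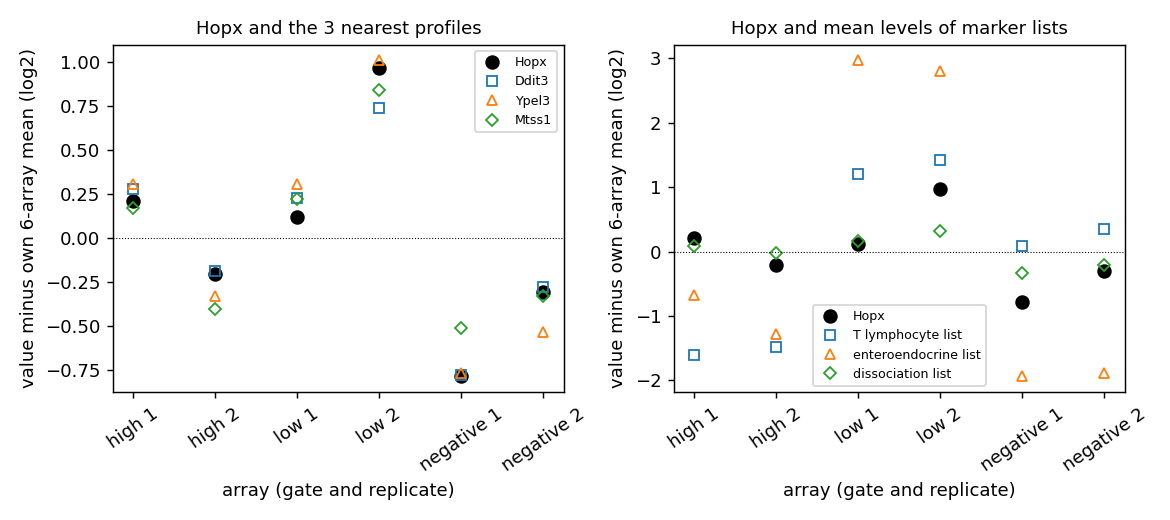
Hopx (black) on each array, as value minus its own 6-array mean (log2), beside the 3 nearest genes (left) and the mean levels of 3 marker lists (right). Low replicate 2 is the highest array for Hopx and for each nearest gene, and the T lymphocyte list is lowest on the 2 high arrays.

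Cofactors known for Hopx in heart and muscle were mostly uncalled. Of 9 such genes (Srf, its coactivators, histone deacetylases, Epc1 and Gata factors), 0 were called by limma in low against negative cells (1 with an unadjusted p under 0.05, median -0.28) and 0 in high against negative cells (3 with an unadjusted p under 0.05, median -0.16). Epc1 and Srf had the smallest p in the first, at 0.51 ± 0.18 and -0.50 ± 0.21, and Hdac2 and Hdac1 in the second, at -1.42 ± 0.33 (limma adjusted p = 0.065) and -1.57 ± 0.39 (limma adjusted p = 0.0761). Over all genes, an unadjusted p under 0.05 was held by 18.5% in low against negative and 22.2% in high against negative cells. The called shares of all genes were 5.96% and 4.71% in the same order. In high against low cells 3.89% of all genes were called lower. Hdac1, a deacetylase, fell by 1.91 ± 0.39 in high against low cells (limma adjusted p = 0.0444). This call was lost without either negative array (limma adjusted p = 0.0983), low replicate 1 (0.146), low replicate 2 (0.195) or high replicate 2 (0.0509), and in 4 other alternatives (0.0502 to 0.0983).

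Lrig1 had 7.39 and 6.71 in high cells, 6.25 and 6.87 in low cells and 7.04 and 7.16 in negative cells. Both low arrays lay below both negative arrays, and the high arrays fell on either side of the negative ones. Low minus negative was -0.54 ± 0.30 (SE; limma adjusted p = 0.449; 95% interval -1.25 to 0.18). High minus low was 0.49 ± 0.30 (limma adjusted p = 0.364; interval -0.23 to 1.21). High minus negative was -0.05 ± 0.30 (limma adjusted p = 0.935), and its interval from -0.77 to 0.67 allows 0.587-fold to 1.59-fold. Its sign turned without negative replicate 2 (0.01) or high replicate 2 (0.29) and with quantile normalization (0.24). Neighbouring gates in the order negative, high, low did not differ beyond the spread of their arrays.

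Several receptors and relatives of Lrig1 were called where Lrig1 was not, and the difference between the genes was not tested. Over all genes, 3.42% were called higher and 2.54% lower in low against negative cells. These shares were 1.36% and 3.35% in high against negative cells and 1.01% and 3.89% in high against low cells. Of 8 genes, made up of Lrig2, Lrig3 and 6 receptor tyrosine kinases, 1 rose and 1 fell in low against negative cells (median -0.42), 1 rose and 3 fell in high against negative cells (median -0.50) and 1 fell in high against low cells (median -0.31). Ret, the receptor of glial cell line-derived neurotrophic factors, had 4.98 and 5.22 in high, 6.82 and 6.65 in low and 4.12 and 4.23 in negative cells. The 3 gates did not overlap for Ret, and only 1 negative array was above background. It rose by 2.56 ± 0.19 in low against negative cells (limma adjusted p = 0.00128) and by 0.93 ± 0.19 in high against negative cells (limma adjusted p = 0.0462). It fell by 1.64 ± 0.19 in high against low cells (limma adjusted p = 0.00615). The enteroendocrine list given above rose in the low gate too, and its part in the Ret values was not tested. Erbb2, the shared ErbB partner without a ligand of its own, fell by 1.32 ± 0.21 in low (limma adjusted p = 0.0162) and by 1.34 ± 0.21 in high cells (limma adjusted p = 0.022), each against negative cells. Erbb3 and the paralog Lrig3 had differences of -1.23 ± 0.25 and -1.17 ± 0.23 in high against negative cells (limma adjusted p = 0.0427 for each). Of 9 other inhibitors of ErbB and downstream signalling, 2 rose in low against negative cells (median 0.60), 1 fell in high against negative cells (median -0.11) and 2 fell in high against low cells (median -0.62). Errfi1, which binds and blocks ErbB kinases, and Dusp6, an ERK phosphatase, rose by 1.51 ± 0.27 and 1.49 ± 0.26 in low against negative cells (limma adjusted p = 0.0256 and 0.0221). Cbl, a ubiquitin ligase for these receptors, fell by 1.87 ± 0.29 in high against negative cells (limma adjusted p = 0.022). In high against low cells Dusp6 fell by 1.79 ± 0.26 (limma adjusted p = 0.0129) and Cbl by 1.96 ± 0.29 (limma adjusted p = 0.014).

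Of these 12 Lrig family, receptor and inhibitor calls, 8 were lost without negative replicate 1 (limma adjusted p from 0.0956 to 0.259) and the same 8 without negative replicate 2 (0.0749 to 0.208). Without low replicate 1, low replicate 2 and high replicate 2, 6, 8 and 5 were lost (0.0505 to 0.135 over these 3). Ret in low against negative cells was called in every alternative. The calls of Erbb3, Lrig3 and Ret in high against negative cells were also lost in 3 or more other alternatives (0.0531 to 0.0921).

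Tert had 3.75 and 3.85 in high cells, 3.66 and 3.73 in low cells and 3.63 and 3.93 in negative cells. All 6 values lay below the background level of 4.23, so no fold was taken and an order of gates was not read. The fitted differences were -0.08 ± 0.19 for low minus negative, 0.02 ± 0.19 for high minus negative and 0.10 ± 0.19 for high minus low (SE; limma adjusted p = 0.921, 0.958 and 0.749). A transcript in few cells of a gate could lie below what such an array detects.

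Genes that work with Tert were above background in most cases. For the counts below, 5.96%, 4.71% and 4.91% of all genes were called in low against negative, high against negative and high against low cells. An unadjusted p under 0.05 was held by 18.5%, 22.2% and 22.6% of all genes in the same order. Of 11 genes of telomerase and its assembly, 10 were measured and 9 lay above background, with Terc, the RNA template, between 5.37 and 6.72 on the 6 arrays (named for its role, after its values were seen). In low against negative cells 0 were called by limma and 5 had an unadjusted p under 0.05, with 9 of 10 differences below 0 and a median of -0.64. Ruvbl2 and Ruvbl1, ATPases of telomerase assembly among other complexes, had -0.88 ± 0.26 and -0.77 ± 0.24. In high against negative cells Ruvbl1 fell by 1.39 ± 0.24 (limma adjusted p = 0.0285), 1 of 10 called, with 5 at an unadjusted p under 0.05, 9 of 10 differences below 0 and a median of -0.62. In high against low cells 0 were called and 1 had an unadjusted p under 0.05 (median -0.21), with Ruvbl1 at -0.62 ± 0.24 and Dkc1, the dyskerin gene, at -0.59 ± 0.36. The 21 measured cell cycle genes, described further on, also had medians below 0 in both positive gates, and their part in these values was not tested.

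Telomere-binding genes had calls in both comparisons of the high gate. Of 11 telomere genes, made up of 7 shelterin genes (Pot1a and Pot1b counted apart), 3 CST complex genes and the telomere helicase Rtel1, which belongs to neither complex, 0 were called by limma in low against negative cells and 1 had an unadjusted p under 0.05 (median 0.00), with Rtel1 at -0.53 ± 0.20 and Tinf2 at 0.45 ± 0.19. In high against negative cells Terf1, a shelterin subunit that binds telomeric DNA, and Ctc1, the largest CST subunit, had differences of -1.52 ± 0.25 and -1.16 ± 0.20 (limma adjusted p = 0.0258 and 0.0282; list median -0.48). In high against low cells Terf1 and Tinf2, the shelterin bridge, had differences of -1.71 ± 0.25 and -1.03 ± 0.19 (limma adjusted p = 0.014 and 0.0323; list median -0.48). Terf1 averaged 5.26 in high, 6.97 in low and 6.78 in negative cells. Of the 5 telomerase and telomere calls, 4 were lost without negative replicate 1 (limma adjusted p from 0.0711 to 0.199), negative replicate 2 (0.0711 to 0.179), low replicate 1 (0.0519 to 0.148), low replicate 2 (0.0519 to 0.16) or high replicate 2 (0.0517 to 0.0703). The calls of Ruvbl1, Terf1 against negative, Ctc1 and Tinf2 were also lost in some other alternatives (0.0519 to 0.0711).

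**Figure D3:**
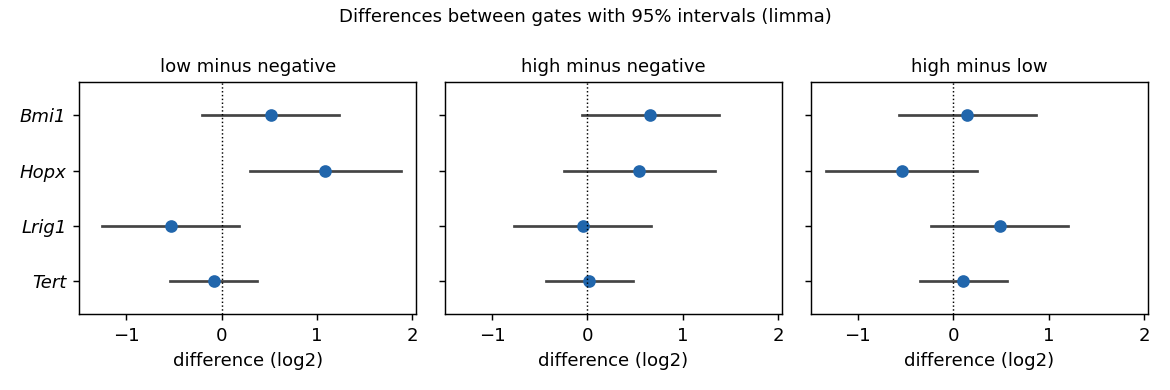
Difference between gates (log2, horizontal axis) for each gene with its 95% interval from limma, in 3 panels for low minus negative, high minus negative and high minus low. The interval of Hopx in low minus negative, from 0.29 to 1.88 before adjustment, is the only 1 of 12 that leaves out 0.

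Other genes reported to mark reserve or label-retaining cells had differences in both directions. Of 9 (Mex3a, Clu, Krt15, Krt19, Msi1, Dclk1, Prox1, Sox9 and Prom1), 1 was called in each comparison. Over all genes the called shares were 5.96% (low against negative), 4.71% (high against negative) and 4.91% (high against low). The list medians were -0.24, 0.03 and 0.29 in the same order. Prox1, a homeodomain transcription factor also found in enteroendocrine cells, had 5.004 and 5.009 in high, 7.08 and 5.76 in low and 3.65 and 3.91 in negative cells. The fitted rise in low against negative cells was 2.64 ± 0.40 (SE; limma adjusted p = 0.0151). Both negative arrays were below background, so the size of this rise depends on values near the floor. The mean of the low arrays (SD 0.94) lay 2.19 above the background level, which sets no lower limit on the rise. Sox9, a transcription factor of crypt base and Paneth cells, had 8.94 and 8.83 in high, 7.44 and 7.46 in low and 7.10 and 7.07 in negative cells. It rose by 1.80 ± 0.17 in high against negative (limma adjusted p = 0.00862) and by 1.44 ± 0.17 in high against low cells (limma adjusted p = 0.00697). The mean level of the 9 Paneth marker genes was 11.71 and 11.64 in high, 10.89 and 11.09 in low and 8.34 and 7.98 in negative cells, all 9 above background on both arrays in the positive gates and 8 in the negative gate, and its part in the Sox9 values was not tested. The calls of Prox1 and of Sox9 against negative cells were lost without negative replicate 1 (limma adjusted p = 0.121 and 0.0993) or negative replicate 2 (0.0953 and 0.117), and that of Sox9 against low cells without low replicate 1 (0.0539) or low replicate 2 (0.0534).

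Crypt base columnar markers were called in both directions. Of 16 measured, 1 rose and 3 fell in low against negative cells (median -0.49), beside 3.42% and 2.54% of all genes. In high against negative cells 1 rose and 1 fell (median -0.19), beside 1.36% and 3.35% of all genes. In high against low cells 2 rose and 1 fell (median 0.53), beside 1.01% and 3.89%. Lgr5, the receptor that defines these cells, had 7.47 and 8.03 in high, 6.06 and 6.04 in low and 6.37 and 6.71 in negative cells. It rose by 1.21 ± 0.25 in high against negative (limma adjusted p = 0.0447) and by 1.70 ± 0.25 in high against low cells (limma adjusted p = 0.0134). Lrig1 was called in neither comparison, with the values given above, and the difference between these genes was not tested. Olfm4 was not called, at -1.42 ± 0.34 in low against negative (limma adjusted p = 0.0649) and -1.18 ± 0.34 in high against negative cells (limma adjusted p = 0.111), though it was called in 4 and 3 alternatives. Slc14a1, a urea transporter gene, differed from negative cells by -1.91 ± 0.23 in low and -2.20 ± 0.23 in high cells (limma adjusted p = 0.00683 and 0.0111). Cd44, a surface receptor that lymphocytes also carry, rose by 1.24 ± 0.26 in low against negative cells (limma adjusted p = 0.0399) and fell by 2.31 ± 0.26 in high against low cells (limma adjusted p = 0.00512).

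Cell cycle genes fell in both positive gates. None of the 4 reserve markers was called there, with Bmi1 and Hopx above 0 in both, Lrig1 below 0 in both and Tert below background. Of 21 measured cell cycle genes, 15 fell in low against negative cells (median -1.81), beside 2.54% of all genes. In high against negative cells 12 fell (median -1.29), beside 3.35% of all genes, and 0 rose in either comparison. Kif11, a spindle motor, fell by 2.37 ± 0.20 in low and by 1.71 ± 0.20 in high cells, each against negative cells (limma adjusted p = 0.00238 and 0.014). Mki67, which encodes the Ki-67 proliferation antigen, fell by 1.95 ± 0.25 in low and by 1.29 ± 0.25 in high cells (limma adjusted p = 0.00847 and 0.0403). In high against low cells Cdk1, the mitotic kinase, rose by 1.04 ± 0.21 (limma adjusted p = 0.0398), the 1 call of 21. Of all genes, 1.01% were called higher there. In low against negative cells fewer cell cycle genes were called without either negative array or either low array. The same held in high against negative cells without either negative array, either low array or high replicate 2. Fewer genes were also called lower over the whole table under each of these settings. Of the 20 crypt base columnar and cell cycle calls named or picked for naming, 15, 16, 8, 9, 1 and 3 were lost without negative replicates 1 and 2, low replicates 1 and 2 and high replicates 1 and 2 in that order (limma adjusted p from 0.051 to 0.259). Lgr5 against negative cells was lost without either negative array, either low array or high replicate 2 (0.0853 to 0.259) and in 3 other alternatives (0.0583 to 0.0853), and against low cells without either low array (0.0797 and 0.0801). Mki67 against negative cells was lost in the low gate without either negative array or low replicate 2 (0.062 to 0.0919), and in the high gate without any 1 array other than high replicate 1 (0.0661 to 0.239) and in 4 other alternatives (0.0544 to 0.0784).

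**Figure D4:**
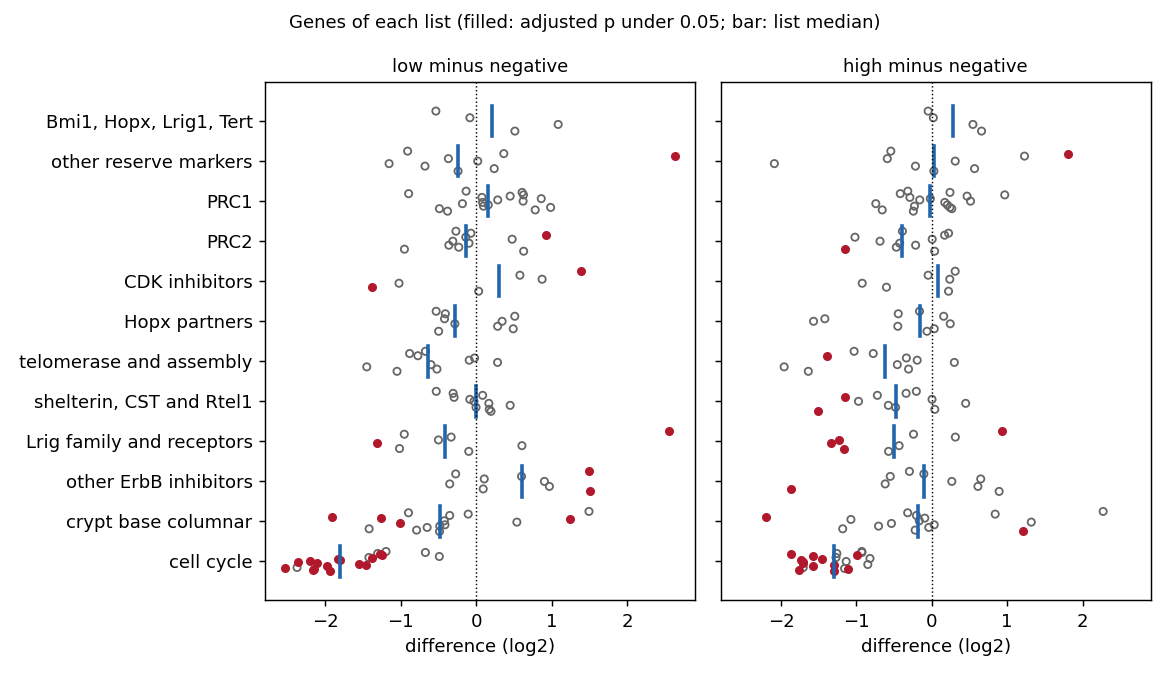
Differences (log2, horizontal axis) of the genes of 12 lists (PRC1 and PRC2 are the polycomb repressive complexes) in low minus negative (left) and high minus negative cells (right), with filled points for genes at an adjusted p under 0.05, open points for the others and a blue bar at each list's median. The top line holds the 4 reserve markers with no filled point, and the bottom line holds 15 and 12 filled cell cycle genes, all below 0.

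The spread between arrays of a gate limits what can be read for the 4 genes. The pooled within-gate SD was 0.38 for Bmi1, 0.43 for Hopx and 0.38 for Lrig1, larger than that of 80.9%, 86.5% and 81.0% of all genes, and 0.13 for Tert, larger than that of 20.1%. The smallest absolute difference called in the whole table was 0.79, 0.82 and 0.81 for low minus negative, high minus negative and high minus low, above every difference of the 4 genes except that of Hopx in low against negative cells. That Hopx difference was above the smallest called one and still missed the threshold. A difference of its size can thus go uncalled in a gene of such spread with 2 arrays a gate. How often it would was not measured, and an uncalled gene is not shown to be level.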

How the data were processed

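The 6 arrays measured sorted crypt cells. The deposited log2 values are RMA summaries, and the submitters' processing notes name Affymetrix Expression Console, version 1.3.0.187, as the authors' tool. The log2 scale was taken from the range, 1.90 to 13.98, and RMA compresses differences near the floor. Scanner files and detection calls were not used here. Of 35556 probe sets, 21789 had a single gene symbol, 1621 several and 12146 were unlisted. A gene with several probe sets took its brightest one, with symbols updated through the GRCm38.p6 gene table (21698 matched).

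Genes were tested with limma 3.58.1 in R 4.3.3 on the deposited values, in 1 fit of 3 gate means over 6 arrays. Tests were two-sided, with Benjamini-Hochberg adjustment over 19938 genes, and limma's adjusted p is the one given throughout. The 4 genes, lists and tests were chosen with earlier results of these data known. Named were the 4 genes, up to 4 called genes with the smallest p per list and comparison (otherwise up to 2 uncalled ones), the landmarks Lgr5, Olfm4, Mki67 and Cfap126, and the 3 nearest profiles of Hopx, the above-background gene of the 4 with the smallest p across gates. From the crypt base columnar and cell cycle lists a part of those picked is printed. Alternatives covered the prior, the gates fitted, leaving out dim genes, averaging probe sets, 2 scalings, array weights, a replicate block and leaving out each array. The fit was tested on simulated data, where it recovered nearly all large changes but few or none of about the size of the largest difference among the 4 genes. Only 200 genes were changed there, fewer than were called in any comparison of the data. The adjustment is stricter with fewer changed genes, so this recovery does not measure that of the real fit. Same-numbered arrays deviated from their gate means with correlations of 0.10 (low and negative), 0.10 (high and negative) and 0.08 (high and low). Python 3.11.15 (pandas 2.3.3, matplotlib 3.10.9) made the tables and plots. List genes with no single-symbol probe set were not analysed here.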

Additional observations from a re-analysis of the deposited data

How the results depend on the processing

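None of the 12 differences of the 4 genes was called by limma under any alternative, 14 each and 13 for Tert, which the filter on dim genes removed. Low minus negative without an array ranged from 0.20 to 0.82 for Bmi1, 0.66 to 1.51 for Hopx, -0.84 to -0.23 for Lrig1 and -0.24 to 0.068 for Tert. High minus negative ranged from 0.41 to 0.91, 0.31 to 0.79, -0.39 to 0.29 and -0.13 to 0.17 in that order. High minus low ranged from -0.16 to 0.46, -0.97 to -0.12, 0.15 to 0.83 and 0.06 to 0.15. Signs also turned for Tert, below background, in high minus negative with arrays centred on their medians (-0.072) or quantile normalization (-0.20) and in high minus low with quantile normalization (-0.11), and for Lrig1 in high minus negative with quantile normalization (0.24). The cause was not tested. Without an array, Cfap126 in high minus negative ranged from -0.31 to 0.28 and Olfm4 in high minus low from -0.31 to 0.78.

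With 2 arrays a gate, replicate numbers could not be shown to pair the arrays. With the replicate number as a block, Bmi1 in high minus negative kept 0.66 with an adjusted p of 0.108, in low minus negative 0.51 with 0.203, and no difference of the 4 genes was called. The number of arrays limits every value.

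Over the whole table, 681 genes were called higher and 507 lower in low minus negative, 272 and 667 in high minus negative and 202 and 776 in high minus low. With array weights the counts were 1105 and 1045, 203 and 417, and 97 and 510. With only the 2 gates compared they were 910 and 851, 184 and 377, and 73 and 426. Without an array they ranged from 148 to 910 and 39 to 851, from 12 to 601 and 1 to 1318, and from 32 to 538 and 349 to 1201. The lowest counts against negative cells came without a negative array.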
